A study of Mus musculus with 10 samples.

Results

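Immunoglobulin variable (V) segment genes are the germline pieces that encode most of the antigen-binding end of an antibody chain. Members were selected on the pooled read counts themselves: the gene symbol had to begin with Ighv (heavy chain), Igkv (kappa light chain) or Iglv (lambda light chain), and the counts had to sum to at least 50 over the 10 libraries. Of 56691 genes in the deposited table, 346 were V segment genes by symbol and 139 of them reached the minimum. The members were 66 of 183 Ighv genes, 71 of 160 Igkv genes and 2 of 3 Iglv genes. The other 207 V segment genes held 1066 of 59125 V reads, or 1.8%, and 122 of these genes had no read in any library. Just inside the minimum were Ighv5-12 with 50 reads, Igkv2-112 with 55 and Igkv5-45 with 56. Just outside it were Igkv4-79 with 49 reads, Ighv2-2 with 47 and Ighv2-3 with 46.

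The study sequenced poly(A)-selected RNA from mouse colon in 2 groups of 5 libraries. The DSS group had drunk 3% dextran sulfate sodium, a polymer that injures the colon lining, for 7 days. The ceAF group had received the same 7 days of DSS and then chick early amniotic fluid by gavage at 15 mL/kg for 10 days. The paper's methods give the animals as male C57/BL6 mice aged 8 weeks, and its untreated and mesalazine groups have no library in the series. The labels only number the libraries within each group and do not state that each number is a separate animal. Each library is treated as 1 mouse, and p-values measure only the spread between these libraries.

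A developing B cell joins 1 V segment to a diversity and a joining segment on the heavy chain, or to a joining segment on a light chain, so each B cell clone and its plasma cell offspring transcribe mainly 1 heavy and 1 light V segment. Plasma cells make far more antibody RNA than resting B cells, and in the colon most of them make IgA, which is secreted across the epithelium. Many clones can use the same V segment, and counts per segment hold no information on the joined ends, so they do not give the number of clones.

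Library totals ran from 14676471 counts in ceAF-1 to 19901549 in DSS-2, with medians of 16426125 for DSS and 16058782 for ceAF. One library stood apart from the other 9 before any comparison. In ceAF-1, V segments held 431 reads, against 3343 to 10653 in the other mice, so its shares rest on few reads. The share of all counts on mitochondrially encoded genes, a rough sign of RNA quality, was 5.34, 5.34, 5.45, 6.54 and 5.06% in DSS-1 to DSS-5 and 9.66, 5.64, 4.53, 7.24 and 9.74% in ceAF-1 to ceAF-5. That share lay above every DSS mouse in ceAF-1, ceAF-4 and ceAF-5, and its part in the V segment values was not tested.

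All 139 members lay in the 3 antibody loci. In the deposited positions, whose genome build is not named, the Ighv members ran from 113561066 to 115964081 on chromosome 12, all 66 on the minus strand. The Igkv members ran from 67532481 to 70681161 on chromosome 6, with 26 on the plus and 45 on the minus strand, and the Iglv members lay between 18903767 and 19079609 on chromosome 16. Their exonic length was 338 to 501 bases. The median member had 211 reads over the 10 mice, and Igkv1-110 had the most, 3940.

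Total V output was expressed in CPM, the number of reads per 1e+06 reads of library, where library sizes had been adjusted by edgeR's TMM factors so that most genes have like values in all mice. It was 490, 445, 266, 370 and 201 CPM in DSS-1 to DSS-5, and 32.9, 399, 584, 224 and 339 CPM in ceAF-1 to ceAF-5. The ceAF group held both the lowest mouse, ceAF-1, and the highest, ceAF-3, a spread of 17.8-fold, and the other 8 mice lay between them in both groups. Group means with their SD (n = 5 in each group, as for every group value) were 354 ± 121 CPM in DSS and 316 ± 205 CPM in ceAF. On the log2 scale the means were 8.39 ± 0.54 and 7.82 ± 1.63, a difference of -0.58, ceAF minus DSS. Without ceAF-1 the difference was 0.12, and without any other single mouse it lay between -0.92 and -0.44, so its sign rested on ceAF-1. In bulk tissue, fewer antibody-making cells and less V RNA per cell cannot be told apart.

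**Figure D1:**
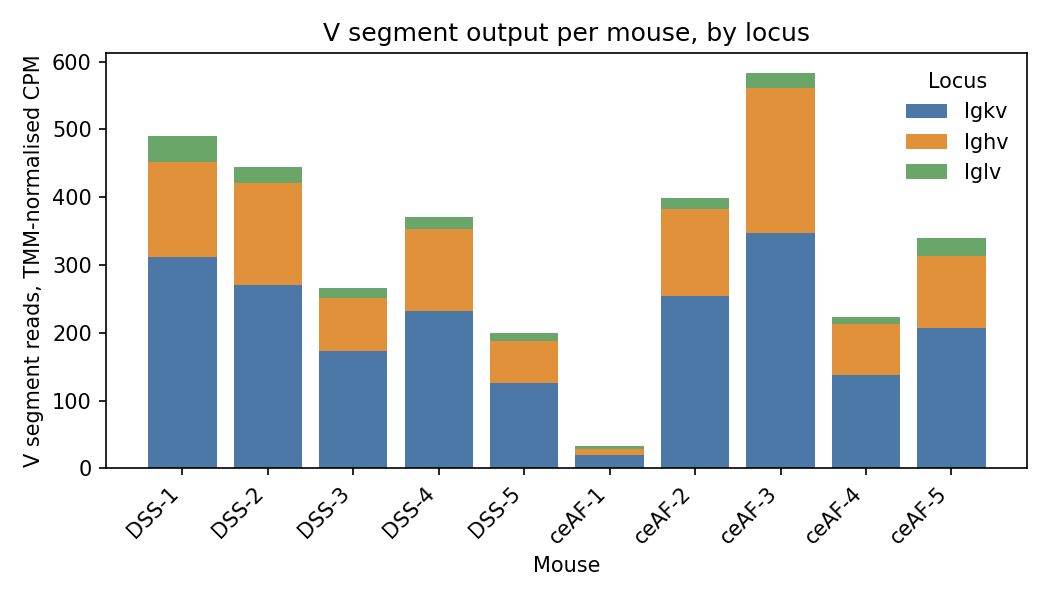
Stacked bars give V segment output in each of the 10 mice in TMM-normalised CPM, split into Igkv, Ighv and Iglv. ceAF-1 had 32.9 CPM and ceAF-3 had 584 CPM, and the other mice of both groups lay between 201 and 490.

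As a share of all counts, the V members held 0.0509, 0.0447, 0.0273, 0.0353 and 0.0204% in DSS-1 to DSS-5 and 0.00294, 0.0393, 0.0566, 0.0233 and 0.0361% in ceAF-1 to ceAF-5. The order of the mice at both ends was that of the CPM values. Each locus had the same lowest mouse. Ighv output averaged 110 ± 38.7 CPM in DSS and 106 ± 75.0 in ceAF, Igkv output 223 ± 74.4 and 193 ± 123, and Iglv output 21.4 ± 10.5 and 16.1 ± 9.12. The groups overlapped in all 3 loci.

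Heavy and light chain shares were computed per length, dividing each member's reads by its exonic length before summing. An antibody holds heavy and light chains in equal number, but the reads over their V segments need not be equal. Ighv made up 28.5, 34.3, 29.8, 32.7 and 30.9% of V output per length in DSS-1 to DSS-5 and 27.7, 32.6, 37.3, 33.7 and 31.3% in ceAF-1 to ceAF-5. Light chain V segments thus had the larger share in every mouse, and the DSS range lay inside the ceAF range. The means were 31.3 ± 2.29% in DSS and 32.5 ± 3.49% in ceAF, a difference of 1.28 percentage points (two-sided exact permutation test over all assignments of 5 of the 10 mice to a group, p = 0.524; the smallest p this test can give is 0.00794). The difference was 0.0898 without ceAF-3 and 2.48 without ceAF-1, and it turned to -0.892 when only members with at least 500 pooled reads were used. By reads, ceAF-1 had a heavy share of 27.1% with a 95% Wilson interval of 23.2 to 31.5%, and ceAF-3 had 36.7% with an interval of 35.8 to 37.6%. These intervals cover counting error only.

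Lambda light chains are the rarer light chain type in the mouse, whose lambda locus has few V segments. The lambda share of light chain V output per length was 10.4, 7.80, 7.48, 6.82 and 8.46% in DSS-1 to DSS-5 and 15.1, 5.96, 5.92, 6.92 and 11.1% in ceAF-1 to ceAF-5. The ceAF group held both the highest and the lowest values. The means, 8.19 ± 1.36% and 9 ± 4.03%, differed by 0.812 percentage points (exact permutation test, p = 0.722). By reads the share in ceAF-1 was 15.3%, with a Wilson interval of 11.7 to 19.7%, and without this mouse the difference was -0.721 percentage points. It was -0.0161 when every mouse was thinned to the 431 V reads of ceAF-1.

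Within lambda, Iglv1 held 97.1, 95.3, 97.3, 96.9 and 95.9% of V output per length in DSS-1 to DSS-5 and 69.4, 96.7, 96.1, 99.4 and 85.5% in ceAF-1 to ceAF-5, with Iglv2 holding the rest. Iglv2 was thus high in ceAF-1 and ceAF-5 and low in ceAF-4. Its level was 1.04, 1.05, 0.359, 0.512 and 0.480 CPM in DSS and 1.07, 0.521, 0.823, 0.0597 and 3.63 CPM in ceAF. ceAF-5 lay well above the DSS range and ceAF-1 just above it. Iglv1 and Iglv2 are 96.7% identical over 366 bases (12 differences), so the split of reads between them is uncertain. The last 120 coding bases of both are shown because they hold 4 of the differences within the pair that makes up the lambda members, with capitals marking the bases that differ. The sequences are those of GENCODE M21 on GRCm38, at chr16:19085017-19085136 for Iglv1 and chr16:19260401-19260520 for Iglv2, both on the minus strand.
Iglv1: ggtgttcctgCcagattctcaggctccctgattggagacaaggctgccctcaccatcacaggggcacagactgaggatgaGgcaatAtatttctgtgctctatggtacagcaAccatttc
Iglv2: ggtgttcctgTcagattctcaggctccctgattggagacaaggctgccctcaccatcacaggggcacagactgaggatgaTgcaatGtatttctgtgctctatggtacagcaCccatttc

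Evenness of segment use was measured by Pielou's index, which is 1 when every member segment of a locus has the same output per length and nears 0 when 1 segment holds all of it. The effective number of segments is the number of equally used segments that would give the same diversity. Ighv evenness was 0.903, 0.815, 0.858, 0.747 and 0.767 in DSS-1 to DSS-5 and 0.785, 0.800, 0.863, 0.874 and 0.832 in ceAF-1 to ceAF-5. With all reads, DSS-1 used its heavy segments most evenly and DSS-4 least, and all 5 ceAF mice fell between them. The means were 0.818 ± 0.0644 and 0.831 ± 0.0385, a difference of 0.0128 (exact permutation test, p = 0.706). Its sign turned, to -0.00506 without DSS-4 and to -0.0028 at a minimum of 500 pooled reads. Without DSS-5 the difference was 0.00011.

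Igkv evenness was 0.867, 0.822, 0.823, 0.757 and 0.761 in DSS-1 to DSS-5, and 0.790, 0.753, 0.837, 0.867 and 0.844 in ceAF-1 to ceAF-5. The highest values were those of DSS-1 and ceAF-4 and the lowest those of ceAF-2 and DSS-4, so the groups overlapped throughout. The means were 0.806 ± 0.0465 and 0.818 ± 0.0459, a difference of 0.0121 (exact permutation test, p = 0.651). This sign also turned, to -0.000108 without DSS-4, -0.000132 without ceAF-4 and -0.00467 at a minimum of 500 pooled reads. As effective numbers, Ighv use came to 31.7 ± 8.67 of 66 segments in DSS and 32.8 ± 5.26 in ceAF, and Igkv use to 31.5 ± 6.26 of 71 segments in DSS and 33.2 ± 6.21 in ceAF. DSS-1 had 44.0 effective Ighv segments and DSS-4 had 22.8. A mouse with fewer reads can look less even, so all mice were also thinned to the 431 reads of ceAF-1. Ighv evenness was then 0.840, 0.767, 0.804, 0.700 and 0.736 in DSS and 0.785, 0.780, 0.814, 0.842 and 0.744 in ceAF, with ceAF-4 just above DSS-1, and the groups still overlapped.

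**Figure D2:**
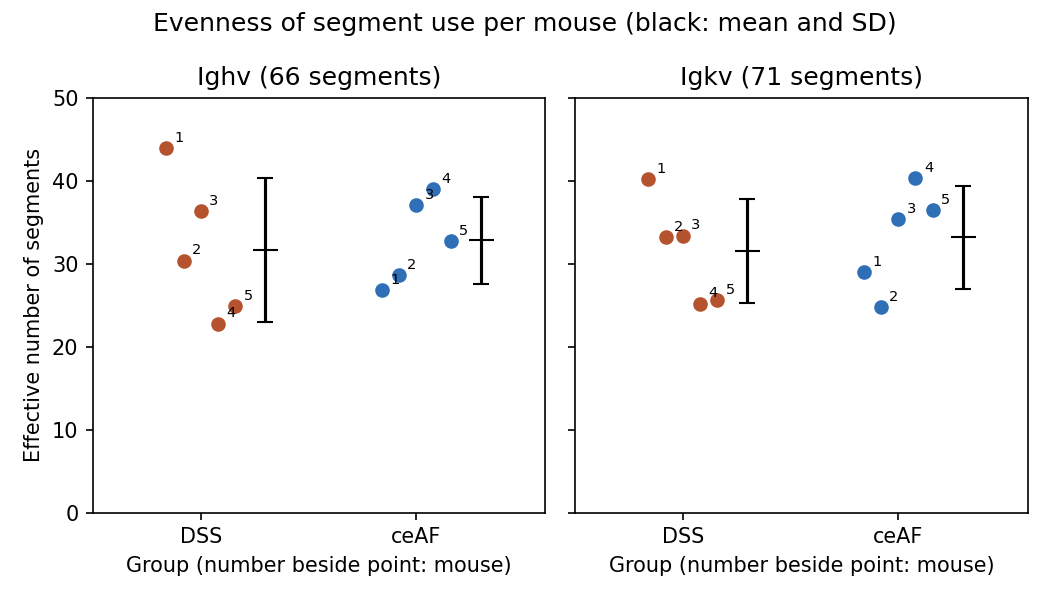
Each point is 1 mouse, with its number beside it, and the black marks give the mean and SD of each group. The vertical axis is the effective number of segments, which ran from 22.8 to 44.0 for Ighv and from 24.8 to 40.3 for Igkv, with the groups overlapping in both.

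Reads were found in all 10 mice for 75 of 139 members and in 9 or more for 111, a description that the pooled minimum shapes, since it leaves out the 207 sparser genes. ceAF-3 had reads on all 66 Ighv and all 71 Igkv members, and ceAF-1 on 37 and 50. Where a member's summed CPM would lie 10% in each mouse if spread equally, the mouse with the most held a median of 32.8%, from 16.8 to 86.4% over the members. For 21 members more than 50% lay in 1 mouse. ceAF-3 was the highest mouse for 34 members, DSS-1 for 25, ceAF-2 for 20 and ceAF-5 for 15. DSS-2 was highest for 13, DSS-4 for 11, DSS-5 for 9, DSS-3 for 7, ceAF-4 for 5 and ceAF-1 for 0.

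The 6 most concentrated members each came largely from 1 mouse. Ighv13-2 had 86.4% of its summed CPM in ceAF-2, Ighv2-9 had 79.1% in DSS-2, Ighv1-61 had 78.4% in ceAF-3 and Ighv14-1 had 75.5% in ceAF-3. Igkv5-45 had 61.6% in DSS-4 and Igkv8-27 had 61.4% in DSS-1. These mice belonged to both groups. Ighv13-2, which shares no 50-base window with another V gene, was at 0, 0.05, 0, 0.0640 and 1.68 CPM in DSS-1 to DSS-5 and at 0, 19.7, 0.494, 0.418 and 0.385 CPM in ceAF-1 to ceAF-5. Only ceAF-2 was high, with 302 reads on it, and none of the other mice passed 1.68 CPM. Ighv14-1 had reads only in ceAF-3 and ceAF-5, at 7.79 and 2.53 CPM. It therefore reached the pooled minimum only through ceAF mice, and nothing is drawn from its direction. Of its 50-base windows, 45.4% also occur in another V gene. Ighv14-4, 97.4% identical to it over 351 bases, had 70 reads in DSS-2 and 99 in DSS-4, so the split between them is uncertain. A count of 0 in a mouse allows up to 3 reads at that depth.

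Among heavy chain segments, the mean level over the 10 mice was given in FPKM, the deposited unit that divides a count by the gene's length and the library's total and so allows genes of different length to be compared. Ighv3-6 had the highest level at 23.3 FPKM, followed by Ighv5-9-1 at 23.2, Ighv1-18 at 14.2, Ighv9-3 at 13.1 and Ighv1-26 at 11.5. The median Ighv member had 2.92 FPKM, and the 10 highest held 43.7% of Ighv output. Ighv10-1, Ighv1-9, Ighv5-17, Ighv1-64 and Ighv1-75 made up the rest of the 10, at 9.77 down to 7.52 FPKM. Each of these genes encodes the same part of the heavy chain, and they differ in their coding sequence.

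The leading heavy segment was rarely the same in 2 mice: 8 different segments led in 10 mice. In the DSS group the leaders were Ighv14-3 with 5.58% of Ighv output per length in DSS-1, Ighv5-9-1 with 12.8% in DSS-2, Ighv5-9 with 9.68% in DSS-3, Ighv3-6 with 15.5% in DSS-4 and Ighv1-18 with 13.2% in DSS-5. In the ceAF group they were Ighv1-76 with 10.3% in ceAF-1, Ighv13-2 with 15.8% in ceAF-2, Ighv3-6 with 10.1% in ceAF-3, Ighv1-26 with 7% in ceAF-4 and Ighv5-9-1 with 17.4% in ceAF-5. Ighv3-6 and Ighv5-9-1 each led in 1 mouse of each group. The leader in ceAF-1 rests on 12 reads, and its share by reads, 10.3%, had a 95% Wilson interval of 5.96 to 17.1%. Ranking by reads gave the same leader in 9 mice, all but ceAF-1.

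Ighv3-6 held 3.99, 11.7, 5.37, 15.5 and 10.2% of Ighv output per length in DSS-1 to DSS-5 and 7.21, 3.85, 10.1, 3.93 and 4.01% in ceAF-1 to ceAF-5. It was high in DSS-2, DSS-4, DSS-5 and ceAF-3, and the groups overlapped. Ighv5-9-1 held 3.86, 12.8, 5.17, 13 and 0.257% in DSS and 2.29, 5.17, 7.14, 0.850 and 17.4% in ceAF. Its lowest value, in DSS-5, and its highest, in ceAF-5, fell in different groups, and the closest member, Ighv5-6, is 94.3% identical to it over 353 bases. Ighv1-26 varied least among the heavy leaders, with 3.32, 3.18, 3.41, 3.24 and 4.14% in DSS and 2.69, 3.84, 4.02, 7 and 4.39% in ceAF. Ighv14-3, the leader of DSS-1, was at 0% in DSS-5 and ceAF-1 and at most at 1.30% in the mice other than DSS-1.

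V segments fall into families of related sequence, named by the first number of the symbol. Ighv1, the largest heavy family with 36 members, held 51.0 ± 9.84% of Ighv output per length in DSS and 46.5 ± 6.87% in ceAF. Ighv5, with 7 members, held 16 ± 9 and 16.5 ± 4.75%, and Ighv3, with 4 members, held 11.5 ± 5.04 and 8.13 ± 3.82%. The groups overlapped for every Ighv and Igkv family, and families were not tested.

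Kappa segments reached higher levels per length. Igkv1-110 had a mean of 55.9 FPKM, Igkv1-117 of 51.4, Igkv10-96 of 38.5, Igkv6-15 of 25.1 and Igkv17-121 of 20.5, against a median Igkv member at 5.38 FPKM. Igkv17-127 at 16.1, Igkv4-59 at 15.7, Igkv19-93 at 14.5, Igkv1-135 at 14 and Igkv6-23 at 13.6 FPKM came next. The 10 highest held 47.2% of Igkv output. Iglv1 had a mean of 45.9 FPKM and Iglv2 of 2.64.

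5 different kappa segments led in the 10 mice. Igkv1-110 led in DSS-2 with 12.9% of Igkv output per length, in DSS-4 with 19.9% and in ceAF-3 with 16.3%. Igkv1-117 led in DSS-3 with 14.7%, in ceAF-1 with 18.3%, in ceAF-2 with 21% and in ceAF-5 with 17.3%. The other leaders were Igkv8-27 with 6.98% in DSS-1, Igkv17-121 with 15.1% in DSS-5 and Igkv10-96 with 10% in ceAF-4. Ranking by reads gave the same kappa leader in all 10 mice.

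**Figure D3:**
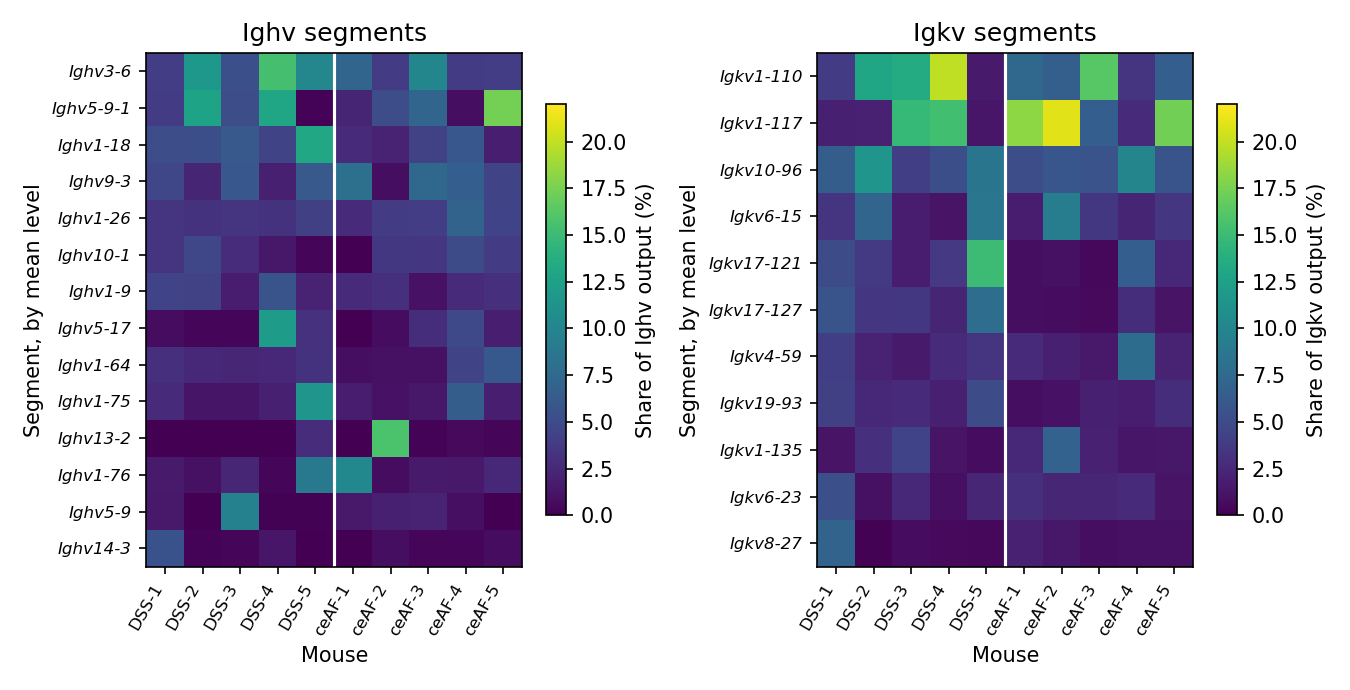
Colour gives each segment's share of its locus's output per length, in percent, for Ighv on the left and Igkv on the right. Columns are the 10 mice with a white line between the groups. The segments drawn are the 10 with the highest mean level in each locus and every mouse's leading segment, and the brightest cell is Igkv1-117 in ceAF-2 at 21%.

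Igkv1-110 held 3.83, 12.9, 13.5, 19.9 and 1.6% of Igkv output per length in DSS-1 to DSS-5 and 7.46, 6.64, 16.3, 3.43 and 6.57% in ceAF-1 to ceAF-5. Igkv1-117 held 1.91, 2.01, 14.7, 15.3 and 1.37% in DSS and 18.3, 21, 6.57, 2.73 and 17.3% in ceAF. Both were high in DSS-3 and DSS-4 and low in DSS-1, DSS-5 and ceAF-4, and the groups overlapped for each. The genes are 97.5% identical over 401 bases, with 10 differences, and 50.9% of the 50-base windows of Igkv1-110 also occur in another V gene, so reads can be split between them in ways the counts do not show. Added together, the pair held 5.74, 14.9, 28.3, 35.1 and 2.97% in DSS and 25.8, 27.6, 22.9, 6.16 and 23.9% in ceAF. The sum does not depend on the split within the pair, and it was low in DSS-1, DSS-5 and ceAF-4. Its means were 17.4 ± 14% and 21.3 ± 8.65%. The last 120 coding bases of the pair are shown because they hold 4 of the differences by which the most abundant kappa reads are assigned, marked by capitals. They are from GENCODE M21 on GRCm38, at chr6:68271148-68271267 for Igkv1-110 and chr6:68121708-68121827 for Igkv1-117, both on the plus strand.
Igkv1-110: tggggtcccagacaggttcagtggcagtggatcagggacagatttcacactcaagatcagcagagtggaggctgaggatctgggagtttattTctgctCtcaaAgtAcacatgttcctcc
Igkv1-117: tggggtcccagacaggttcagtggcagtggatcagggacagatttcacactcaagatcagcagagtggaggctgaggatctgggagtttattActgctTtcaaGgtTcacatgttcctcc

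Close relatives were the rule among the members. All 139 members were found in GENCODE M21 by Ensembl gene identifier, all annotated as V genes and none as a pseudogene. Of these, 121 shared at least 1 window of 50 bases with another V gene of the annotation, and a median of 23.3% of a member's windows were shared. For 17 members more than 50% were shared, and the highest share was 92.5%. A 100-base window was shared by 55 members, and 74 members had another V gene with at least 95% identical bases, compared without gaps. How the counting program treated reads that fit more than 1 gene is not given, so values of single segments are less certain than locus totals.

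Single members were compared between groups by the edgeR quasi-likelihood test, fitted to all genes with enough reads (edgeR's filterByExpr, minimum count 10) and adjusted by Benjamini-Hochberg over all of them. Of the members, 88 passed this filter and 51 did not. At an adjusted p under 0.05, 0 of 88 members were called, and edgeR called 0 of all 16545 genes tested (0.0%). DESeq2, run as an alternative, called 31 of 17290 genes (0.179%), and 1 of them was a V segment, Igkv17-127. At an unadjusted edgeR p under 0.05, 1 member was lower in ceAF, where 3.67% of all genes tested were, and 2 were higher, where 3.26% of all genes were. Groups that did not overlap were found for 1 tested member, lower in ceAF, against 0.465% of all genes, and for 0 higher in ceAF, against 0.774% of all genes.

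The fitted log2 fold change, ceAF over DSS, was below 0 for 54 of the 88 members tested and above 0 for 34, with a median of -0.23 beside 0.01 for all genes tested. The median was -0.22 for 38 Ighv members and -0.25 for 48 Igkv members. Leaving out ceAF-1 turned the median to 0.08 over the 95 members then tested. The median was 0.00 without DSS-1 and -0.04 without DSS-2. Without ceAF-3 it was -0.51. At an unadjusted edgeR p under 0.05, 7 members were found without ceAF-1 (1 lower, 6 higher), or 7.37% of those tested beside 11.2% of all genes in that fit. Without ceAF-3 there were 9 (7 lower, 2 higher), or 10.2% beside 6.62% of all genes. Without both ceAF-1 and DSS-1, chosen after the data were seen, there were 12 (1 lower, 11 higher), or 13.6% beside 8.76%, with a median of 0.27. Which direction held more of these members depended on the mice left out. Single segments were measured loosely. The median standard error (SE) of their log2 fold change was 0.785, against 0.209 for all genes.

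The member with the smallest unadjusted p was Igkv17-127, a kappa segment. It was at 17.4, 9.19, 5.81, 4.93 and 9.78 CPM in DSS-1 to DSS-5 and at 0.153, 1.69, 1.86, 3.82 and 2.25 CPM in ceAF-1 to ceAF-5. Every DSS mouse lay above every ceAF mouse, with DSS-4 and ceAF-4 closest. The log2 fold change was -2.25 (SE 0.568, unadjusted p = 0.0022, edgeR adjusted p = 0.656), and DESeq2 gave -2.27 with an adjusted p of 0.0262. As a share of Igkv output per length it held 5.73, 3.52, 3.54, 2.24 and 7.87% in DSS and 0.794, 0.699, 0.562, 2.85 and 1.14% in ceAF, where ceAF-4 lay above DSS-4.

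Its close relative Igkv17-121 was at 15.5, 9.84, 2.93, 8.07 and 19.0 CPM in DSS-1 to DSS-5 and at 0.153, 2.34, 1.54, 8.95 and 5 CPM in ceAF-1 to ceAF-5, and here ceAF-4 and ceAF-5 overlapped with the DSS mice. The log2 fold change was -1.61 (unadjusted p = 0.0505, edgeR). These 2 genes are all the members of the Igkv17 family, which held 10.8, 7.25, 5.30, 5.86 and 23.0% of Igkv output per length in DSS and 1.58, 1.66, 1.02, 9.45 and 3.65% in ceAF. DSS-5 was highest, and ceAF-4 lay within the DSS range. The pair is 97.5% identical over 359 bases, with 9 differences, so the split between them is uncertain, and 3 of the differences lie in the last 120 coding bases. These are shown because the member whose groups did not overlap and its overlapping relative are told apart by them, in capitals. They are from GENCODE M21 on GRCm38, at chr6:67861540-67861659 for Igkv17-127 and chr6:68037199-68037318 for Igkv17-121, both on the plus strand.
Igkv17-127: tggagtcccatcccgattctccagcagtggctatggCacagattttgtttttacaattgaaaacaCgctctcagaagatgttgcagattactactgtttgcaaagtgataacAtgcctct
Igkv17-121: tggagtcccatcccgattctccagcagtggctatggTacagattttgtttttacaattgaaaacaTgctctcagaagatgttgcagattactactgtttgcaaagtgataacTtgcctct

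The higher members at an unadjusted p under 0.05 were Igkv1-88 and Igkv4-74. Igkv1-88 was at 0.0580, 0.700, 0.0599, 0.0640 and 0.180 CPM in DSS-1 to DSS-5 and at 0.0763, 5.40, 1.81, 1.31 and 2.42 CPM in ceAF-1 to ceAF-5. Of the ceAF mice, 4 lay above every DSS mouse, and ceAF-1, with 1 read, lay among them. The log2 fold change was 3.27 (SE 0.895, unadjusted p = 0.00381, edgeR adjusted p = 0.656), and no 50-base window of this gene occurs in another V gene. Igkv4-74 was at 0.637, 0.650, 0.299, 0.384 and 0.120 CPM in DSS and at 0.305, 0.325, 0.713, 2.74 and 2.86 CPM in ceAF. It was high in ceAF-4 and ceAF-5, and its log2 fold change was 1.72 (SE 0.696, unadjusted p = 0.0311, edgeR adjusted p = 0.694). The DSS mice had 1, 14, 1, 1 and 3 reads on Igkv1-88 and 11, 13, 5, 6 and 2 on Igkv4-74, so both reached the pooled minimum of 50 only through the ceAF mice. That choice favours a higher level in ceAF, and nothing is drawn from their direction.

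The members next in order of p did not pass an unadjusted 0.05 in edgeR. On the lower side these were Igkv3-4 (log2 fold change -1.72), Igkv6-32 (-1.48) and Igkv3-5 (-1.73). On the higher side they were Ighv5-4 (1.46), Ighv1-22 (1.82) and Ighv4-1 (1.36). Igkv3-4 was high in DSS-5, with 101 reads, and Igkv6-32 and Igkv3-5 in DSS-2, with 320 and 115 reads. Ighv1-22 and Ighv5-4 were high in ceAF-3, with 265 and 77 reads. The groups overlapped for all 6. Over the alternatives run, the weakest log2 fold change was -0.54 for Igkv3-4, -0.44 for Igkv6-32 and -0.34 for Igkv3-5. It was 0.73 for Ighv5-4, 0.28 for Ighv1-22 and 0.72 for Ighv4-1. The ceAF mice had 0, 9, 17, 8 and 14 reads on Igkv3-4 and 1, 3, 11, 7 and 21 on Igkv3-5. Both thus reached the pooled minimum of 50 only through the DSS mice, and nothing is drawn from their direction.

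Segment use as a whole was compared by Bray-Curtis distance between the shares of 2 mice, which is 0 for equal use and 1 for no segment in common. The mean distance was 0.425 within DSS, 0.428 within ceAF and 0.428 between the groups. The closest pair, DSS-1 and ceAF-4 at 0.313, and the farthest, DSS-5 and ceAF-2 at 0.594, each joined mice of different groups. Pseudo-F, the ratio of between-group to within-group variation in these distances, was 1.09 (exact permutation test, p = 0.294). It was 0.833 for Ighv (exact p = 0.714) and 1.22 for Igkv (exact p = 0.262).

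V output was set beside the constant regions, the other end of the same antibody RNAs. Igha, the constant region of IgA, was at 2030, 1570, 1420, 1980 and 631 CPM in DSS-1 to DSS-5 and at 193, 1530, 1610, 749 and 1440 CPM in ceAF-1 to ceAF-5, with DSS-5, ceAF-1 and ceAF-4 low as in the V total. Jchain, which joins IgA into dimers, was at 750, 569, 545, 676 and 173 CPM in DSS and at 79.2, 624, 502, 285 and 547 CPM in ceAF.

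4 relations of the log2 V total were computed over the 10 mice, with permutation p-values adjusted by Benjamini-Hochberg over the 4. With log2 Igha, Pearson's r was 0.95 (permutation p = 0.00024, adjusted 0.00096) and Spearman's rho 0.90 (permutation p = 0.00068, adjusted 0.00272). Leaving out DSS-5 and ceAF-1, the mice farthest from the median V total, gave r = 0.73 (exact p = 0.029, n = 8). With log2 Jchain, r was 0.91 (permutation p = 0.00097, adjusted 0.00194) and rho 0.70 (permutation p = 0.0296, adjusted 0.0395). Without those 2 mice r was 0.62 (exact p = 0.101, n = 8), so 8 mice do not settle whether the relation with Jchain holds without them.

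The B cell score of a mouse is the mean, over the tested genes of a list of B cell markers, of log2 CPM relative to the gene's mean over the mice. Its relation with the V total had r = 0.72 (permutation p = 0.0163, adjusted 0.0217) and rho = 0.77 (permutation p = 0.0132, adjusted 0.0264), and r = 0.69 (exact p = 0.059, n = 8) without DSS-5 and ceAF-1. With Ighv evenness, r was 0.35 (permutation p = 0.351, adjusted 0.351), rho was 0.41 (permutation p = 0.247, adjusted 0.247), and r without the 2 mice was -0.02 (exact p = 0.966).

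**Figure D4:**
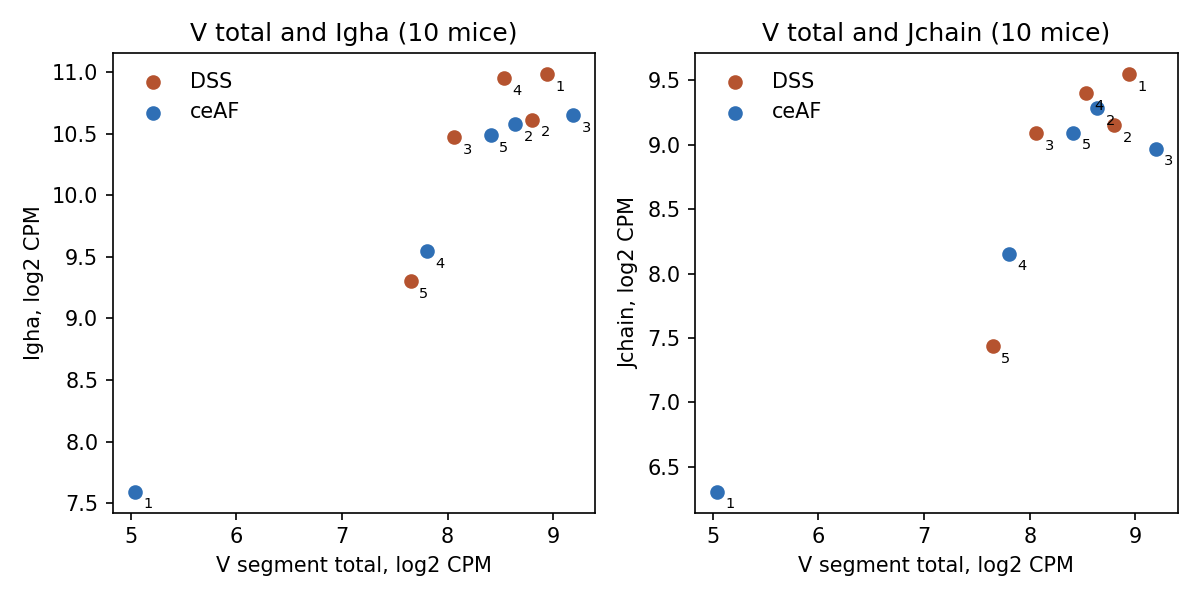
Points are the 10 mice, with their numbers, in log2 CPM: the V total on the horizontal axes, Igha on the left vertical axis and Jchain on the right. ceAF-1 lies apart at the lower left, and r was 0.95 for Igha and 0.91 for Jchain.

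Per length, Ighv output came to 0.335, 0.565, 0.352, 0.376 and 0.414 of heavy constant region output in DSS-1 to DSS-5 and to 0.292, 0.540, 0.777, 0.678 and 0.437 in ceAF-1 to ceAF-5. The corresponding ratio of Igkv to Igkc, the only kappa constant gene, was 0.231, 0.306, 0.209, 0.212 and 0.271 in DSS and 0.198, 0.294, 0.393, 0.389 and 0.304 in ceAF. Both ratios were lowest in ceAF-1 and highest in ceAF-3, with ceAF-4 next, and the groups overlapped. Fewer V than constant reads per length were thus counted in every mouse for both chains. The means were 0.408 ± 0.0924 and 0.545 ± 0.192 for the heavy chain and 0.246 ± 0.0418 and 0.316 ± 0.0803 for kappa. For lambda the ratio to its constant genes was 0.930, 0.989, 0.672, 0.601 and 1.15 in DSS and 0.538, 0.672, 0.916, 1.08 and 0.585 in ceAF, near or above 1 in some mice of each group. Igha made up 67.5, 80.8, 89.3, 86.9 and 57.7% of heavy constant output in DSS and 87.3, 89.1, 80.2, 93.4 and 83.6% in ceAF, so IgA was the main class in every mouse.

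Outside the immunoglobulin loci, the 10 genes whose log2 CPM followed the log2 V total most closely over the 10 mice were picked from 16251 by Pearson's r, as a description. They were Slc29a3 (r = 0.962), Inpp4b (0.955), Gm30211 (0.954), Mzb1 (0.953), Clic4 (0.948), Bcas1 (0.946), Msl3l2 (0.941), Ocstamp (0.939), S100a16 (0.939) and Wwc2 (0.938). Mzb1 encodes a protein of the endoplasmic reticulum that helps antibody chains to assemble. It was at 5.85, 2.60, 1.68, 2.56 and 2.16 CPM in DSS-1 to DSS-5 and at 0, 2.80, 3.18, 2.15 and 2.42 CPM in ceAF-1 to ceAF-5. It was lowest in ceAF-1. The choice by r favours genes that are low in ceAF-1, where the V total lay far below the other mice. Jchain ranked 38 in that order, with r = 0.912.

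Lists of marker genes give the setting of these values. At an adjusted p under 0.05 edgeR called 0 genes of any list, with the counts at an unadjusted p under 0.05 given for each, and the 31 DESeq2 calls were not counted by list. Of all genes tested, 3.67% were lower and 3.26% higher in ceAF at an unadjusted edgeR p under 0.05. Among 17 plasma cell genes, all tested, 12 had a log2 fold change below 0 and 5 above it, with a median of -0.21 beside 0.01 for all genes. An unadjusted p under 0.05 was given by Derl3 (-0.96, edgeR unadjusted p = 0.0193), which helps to clear misfolded proteins from the endoplasmic reticulum, and Slamf7 (-0.91, edgeR unadjusted p = 0.0246), a surface receptor of plasma cells and other lymphocytes. The summed level of the list was 1360, 1270, 1170, 1340 and 1430 CPM in DSS-1 to DSS-5 and 1020, 1270, 1340, 1250 and 1150 CPM in ceAF-1 to ceAF-5. Xbp1, a regulator of secretory cells that colon epithelium also expresses, had the most reads of the list.

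Of 20 B cell genes 19 were tested, 18 lower and 1 higher in ceAF by sign, the median of their log2 fold changes was -0.60, and 0 were at an unadjusted edgeR p under 0.05. Their summed level was 442, 86.0, 64.5, 76.3 and 76.7 CPM in DSS-1 to DSS-5 and 26.3, 80.8, 150, 29.1 and 214 CPM in ceAF-1 to ceAF-5, with Cd37 holding the most reads. DSS-1 was high, followed by ceAF-5 and ceAF-3, and ceAF-1 and ceAF-4 were low. The other DSS mice, at 64.5 to 86.0 CPM, lay inside the ceAF range, and the signs of this list were not counted without DSS-1. No gene of the list was at 0 in all mice. Within the DSS group, DSS-1 also had the most even Ighv and Igkv use and the highest light chain V output, and the part of B cell content in this was not tested. With both ceAF-1 and DSS-1 left out, an alternative chosen after the data were seen, the log2 difference in V total was 0.251.

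Of the antibody constant region, Jchain and Pigr genes 13 of 14 were tested, 12 lower and 1 higher by sign with a median of -0.53, and Ighg2c had an unadjusted edgeR p under 0.05 (log2 fold change -2.15, unadjusted p = 0.0156). Of 7 follicle and lymphoid chemokine genes 5 were tested, all lower by sign with a median of -1.01, and Ccl21a (-1.55, edgeR unadjusted p = 0.0162) and Ltb (-1.01, edgeR unadjusted p = 0.00882) were under 0.05 unadjusted. In 11 genes for attraction and survival of plasma cells, 9 tested, 6 were lower and 3 higher with a median of -0.42. Itgb7, part of a receptor that brings lymphocytes to the gut (-1.04, edgeR unadjusted p = 0.00868), and Cxcl12, a chemokine (-0.54, edgeR unadjusted p = 0.0404), had an unadjusted p under 0.05. For 7 of 8 germinal center genes the signs were 4 lower and 3 higher with a median of -0.04. The 3 octamer factor genes, whose proteins act on V segment promoters, were lower by sign with a median of -0.52, and neither list had a gene under 0.05 unadjusted.

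Epithelial markers were present in every mouse at summed levels of 24300, 28800, 31100, 32700 and 19700 CPM in DSS-1 to DSS-5 and 33700, 26100, 28300, 26300 and 22500 CPM in ceAF-1 to ceAF-5, with Muc2 holding the most reads. DSS-5 was lowest, and of the 10 genes 4 were lower and 6 higher in ceAF by sign, with a median of 0.05 and none under 0.05 unadjusted in edgeR. The 7 T cell genes were lower in ceAF by sign, with a median log2 fold change of -1.32. All 7 had an unadjusted edgeR p under 0.05, where 3.67% of all genes tested were lower. The list holds Cd3e, Cd3d, Cd3g, Cd8a and Lck, which the paper had already reported as changed by ceAF in its sequencing data. It was drawn up with earlier results of these data known, so this count is no independent support. Their summed level was 117, 139, 131, 142 and 54.1 CPM in DSS-1 to DSS-5 and 51.0, 60.5, 52.9, 29.5 and 37.9 CPM in ceAF-1 to ceAF-5, with Cd8a holding the most reads and no gene at 0 in all mice. DSS-5 lay among the ceAF mice. DSS-5 was the lowest DSS mouse in both the T cell level and the V total, and ceAF-3 had the highest V total with a T cell level of 52.9 CPM. Any link between the T cell and V segment levels was not tested.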

How the data were processed

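RNA from 10 colon libraries, 5 DSS and 5 ceAF, was compared. The authors deposited read counts per gene as whole numbers, without normalization. The authors also deposited FPKM beside each count, which a check showed to be the count divided by exonic length and library total, within 0.005. The submitters' notes name cutadapt 1.9.1 and HISAT2 2.2.1. The counting program, its use of strand and of reads that fit several genes, and the genome build are not given in the sources used here.

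Genes kept by filterByExpr (minimum count 10) were fitted with edgeR 4.0.16 in R 4.3.3, with TMM scaling, the two-sided quasi-likelihood test and Benjamini-Hochberg adjustment over all genes kept. Log2 values used a prior count of 1. Shares and evenness used member counts per exonic length. Exact permutation tests used all assignments of the mice, correlations 100000 resamples, intervals Wilson's method at 95%. scipy 1.17.1, pandas 2.3.3 and matplotlib 3.10.9 ran in Python 3.11.15. The scripts were tested on simulated data. No sample was left out.

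Segments were named by rule: the 10 highest Ighv and Igkv members by mean FPKM and all Iglv members; each mouse's leading Ighv and Igkv segment; the 5 smallest unadjusted p in each direction; the 6 most concentrated in 1 mouse; the 3 genes just inside and just outside 50 reads; the 10 genes outside the loci with the highest r with the V total; and genes of 9 marker lists (constant region, plasma cell, B cell, germinal center, follicle, plasma cell attraction and survival, octamer factor, epithelium, T cell). Members and lists were chosen with earlier results of these data known. Sequences came from GENCODE M21 on GRCm38, where all 346 V genes were matched by Ensembl gene identifier.

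Alternatives were DESeq2 1.42.0, upper quartile, plain library size and FPKM scaling, TMM without immunoglobulin genes, shares by reads, no filter on low counts, pooled minimums of 1 and 500, thinning to 431 V reads, the replicate number as a block, and leaving out each mouse. Leaving out both ceAF-1 and DSS-1 was added after seeing the data.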

Additional observations from a re-analysis of the deposited data

Results flagged for a closer look

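Dixon's ratio, the gap between the most extreme mouse of a group and its nearest neighbour divided by the group's whole range, was computed in each group for the V total, shares, evenness and ratios to constant regions and for the log2 CPM of the segments highest by level, and chance passes its 95% limit in about 1 in 20 groups. Of 62 groups tested, 6 passed, where chance would give 3.1, and in all 6 the extreme mouse was ceAF-1, at the low end. These 6 are levels of single segments in the same mouse, which had few V reads, so they are not independent of each other. The ratio was 0.864 for Ighv10-1, which had 0 reads in ceAF-1, 0.824 for Igkv10-96, 0.812 for Ighv1-26, 0.752 for Ighv1-9, 0.727 for Igkv17-127 and 0.72 for Igkv19-93. No DSS mouse passed the limit for any of these values. The V total, shares, evenness and ratios to constant regions passed it in neither group.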

How the results depend on the processing

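In the 15 alternative edgeR fits run, 0 V segments were called at an adjusted p under 0.05, where 14 of the fits also called 0 of all genes and the fit without DSS-5 called 3 of 16784. At an unadjusted p under 0.05 edgeR gave 3 with all mice, 3.41% of members tested beside 6.93% of all genes, and DESeq2 called 1 (Igkv17-127, -2.27). The unadjusted count was 16 of 139 with no filter on low counts (8 lower, 8 higher; 11.5% beside 5.33% of all genes), 10 with DESeq2 (5 lower, 5 higher; 7.52% beside 4.84%), and 2 to 9 with 1 mouse left out, highest without ceAF-3 (9; 10.2% beside 6.62%), ceAF-1 (7; 7.37% beside 11.2%), ceAF-2 (5; 5.26% beside 7.05%) and ceAF-4 (5; 5.21% beside 5.62%) and lowest without DSS-4 (2; 2.13% beside 5.68%) and ceAF-5 (2; 2.22% beside 5.76%). The fit with no filter covered 32504 genes and DESeq2 32419, against 16545 in the main fit. In those 2 settings the other genes had no minimum, whereas every member had at least 50 pooled reads. The shares of members and of all genes are thus at unlike thresholds there, and nothing is drawn from them. The log2 difference in V total was -0.604 by plain library size, -0.610 by FPKM and -0.705 with a pooled minimum of 500. Leaving out 1 mouse at a time gave -0.922 to 0.12 for the V total, 0.0898 to 2.48 percentage points for the heavy share, -0.721 to 1.58 for the lambda share, -0.00506 (without DSS-4) to 0.0341 for Ighv evenness, -0.000132 (without ceAF-4; -0.000108 without DSS-4) to 0.0284 for Igkv evenness, and 0.889 to 1.42 for pseudo-F. Without both ceAF-1 and DSS-1, an alternative chosen after seeing the data, the V total difference was 0.251, the lambda difference -0.173 and the unadjusted count 12 (13.6% beside 8.76%), and log2 fold changes turned to 1.46 for Igkv8-27, 0.44 for Igkv4-59, 0.30 for Ighv1-64, 0.32 for Igkv6-15, 0.07 for Ighv5-9-1, 0.71 for Igkv6-23, 0.44 for Ighv14-3, 0.00 for Ighv5-9 and 0.12 for Iglv1. Thinning to 431 reads turned the lambda difference to -0.0161. A pooled minimum of 500 turned the heavy share difference to -0.892, Ighv evenness to -0.0028 and Igkv evenness to -0.00467. Of 34 named segments with a fold change, 17 kept its sign under the 16 alternatives run for fold changes and 17 did not. With 1 mouse left out, the log2 fold changes of the latter other than Iglv1 ran from -1.58 to 1.21 (Igkv8-27), -0.73 to 0.17 (Igkv4-59), -0.77 to 0.15 (Ighv1-64), -0.69 to 0.43 (Igkv6-15), -0.86 to 0.45 (Igkv6-23), -2.02 to 0.15 (Ighv14-3), -0.63 to 0.42 (Ighv5-9-1), -1.25 to 1.38 (Ighv5-9), -1.36 to 0.04 (Igkv1-110), -1.13 to 1.40 (Ighv5-17), -0.73 to 0.28 (Ighv1-76), -0.92 to 0.11 (Ighv1-75), -0.55 to 0.70 (Igkv1-135), 0.00 to 0.91 (Ighv10-1), -0.51 to 0.68 (Ighv9-3) and -0.18 to 1.14 (Iglv2). The replicate numbers do not pair the mice: same-numbered mice deviated together with r = -0.249, -0.136, -0.00428, -0.159 and 0.286, and only 1 of 5 matched its own number best. With the replicate number as a block, 3 V segments had an unadjusted edgeR p under 0.05 (3.41% beside 4.19%) and 0 were called, the V total difference was -0.579, and Igkv8-27 (0.55), Ighv5-9 (0.19), Igkv1-135 (-0.02) and Ighv9-3 (-0.17) changed sign. The cause was not tested for any of these. Depth limits the shares in ceAF-1, which had 431 V reads in all.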
